A study of Mus musculus with 6 samples.

Results

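The transcripts for the synthesis, binding and breakdown of hyaluronan were described in palates of mouse embryos at E13.5. The genes were Has1, Has2, Has3, Hyal1, Hyal2, Cd44 and Vcan, and all array probe sets annotated to one of them alone were taken. Of these 7 genes, 6 had such a probe set, 17 probe sets in all out of 45037 tested, and the array measured 18193 genes by single-symbol probe sets. Hyal1 had none, because its 2 probe sets are annotated to Naa80 as well, so it is given no value here. The double-null group was Fz1-/-;Fz2-/- (3 arrays), and it was set against the Fz1-null group, Fz1-/-;Fz2+/+ (3 arrays). Both groups lack Fzd1, which encodes the Wnt receptor Frizzled 1, so the comparison asks what differs when Fzd2, the gene of Frizzled 2, is lost as well, and no palate with an intact Fzd1 was part of it. Per the labels, the microdissected palates came from embryos of both sexes on a C57BL6/129 mixed background, and arrays are numbered 1 to 3 in each group. The labels give neither the kind of null allele nor the number of embryos behind an array, so p-values reflect only how far these samples spread, and part of that spread may be technical.

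Hyaluronan is a long unsulphated sugar chain that Has enzymes build at the cell membrane from UDP-glucuronic acid and UDP-N-acetylglucosamine and push out into the matrix. It binds much water, and in the palatal shelves, which at this stage grow down beside the tongue before they lift and fuse, it is a main component of the mesenchymal matrix. Outside the cell it is held by the surface receptor CD44 and by versican, the large proteoglycan encoded by Vcan. Chains are cut by HYAL2 at the cell surface and digested further by HYAL1 in lysosomes.

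No hyaluronan transcript passed the test across the whole array, and in the fit on genotype alone neither did Fzd2 itself. With limma and Benjamini-Hochberg adjustment over all probe sets, 0 of the 17 probe sets passed an adjusted p of 0.05, against a background of 0% (0 of 45037), and 0 of the 17 lay at an unadjusted p under 0.05, beside 0.266% of all probe sets on the lower and 0.691% on the higher side. With the replicate number as a block, again 0 of the 17 passed, against 0.00666% of all probe sets. In that fit 2 of the 17 lay at an unadjusted p under 0.05 on the lower side (background 1.94%) and 0 on the higher side (background 2.77%). Cd44 and Has3, each by its brightest probe set, had the largest differences among the 6 genes. In these 2 probe sets the double-null array was the lower one of all 3 same-numbered pairs, as in 12.8% of all probe sets. The median log2 difference (double-null minus Fz1-null) was -0.05 over the 17 probe sets and -0.004 over all 45037.

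The genotype was visible in Fzd2 itself. Its probe set 1418532_at read 10.21, 10.53 and 10.20 in double-null arrays 1 to 3, against 11.46, 11.60 and 11.64 in Fz1-null arrays 1 to 3, in log2 RMA units. Even so, its 3 probe sets had limma adjusted p of 0.217, 0.353 and 0.9999 with genotype alone. With the replicate block they had 0.0089, 0.0082 and 0.0062. Since the fit on genotype alone did not call Fzd2, a probe set that did not pass it is not shown to be unchanged. The palate mesenchyme markers chosen as a check (9 genes, Prrx1, Osr2, Pax9 and Msx1 among them) all lay above the median level of all probe sets. So did 11408 of 18193 genes by their brightest probe set. All epithelial, endothelial and neuronal markers did too, so this check does not single out mesenchyme. Arrays of the same number were more alike (correlation over all probe sets of 0.997 in each of the 3 pairs) than arrays of the same genotype (0.991 to 0.994), and each gene is therefore given array by array and pair by pair. Values are comparable between arrays for 1 probe set but not between probe sets, so no order of abundance among the genes is given.

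Has2, whose product is the principal hyaluronan synthase of embryonic mesenchyme, differed little between the genotypes. Probe set 1418678_at read 8.45, 8.41 and 8.13 in double-null arrays 1 to 3, against 8.44, 8.32 and 8.31 in Fz1-null arrays 1 to 3. The groups overlapped, and double-null array 3 was the lowest of the 6. The difference was -0.03 (SE 0.10), with a 95% interval of -0.26 to 0.21 on the log2 scale, and the pair differences were 0.01, 0.09 and -0.18. The second probe set, 1449169_at, read 8.15, 8.41 and 7.95 in double-null palates, against 8.30, 8.38 and 8.12 in Fz1-null palates. There too the groups overlapped, and array 3 was the lowest of its group in both genotypes. Its difference was -0.09 (SE 0.13), with an interval of -0.40 to 0.21, and the pair differences were -0.15, 0.03 and -0.16. Neither interval holds a change as large as that of Fzd2, which was -1.25 (SE 0.11), and smaller changes in either direction stay within both. Without double-null array 3 the Has2 differences were 0.07 and 0.02, on the other side of 0.

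Has3 encodes the synthase known mainly from epithelia such as the epidermis, and its single probe set, 1420589_at, had the most even shift of the synthases. It read 6.56, 6.19 and 6.23 in double-null arrays 1 to 3, against 6.73, 6.49 and 6.42 in Fz1-null arrays 1 to 3. Each double-null array was lower than the Fz1-null array of its number, but the groups overlapped, since array 1 was the brightest in both. The pair differences were -0.17, -0.30 and -0.20, with a mean of -0.22 (SE 0.13, 1.17-fold lower) and a 95% interval of -0.52 to 0.08. The limma adjusted p was 1.00, and 0.966 with the replicate block (unadjusted p = 0.0095). Being lower in all 3 pairs was true of 12.8% of all probe sets. The probe set lies below the median level of all probe sets.

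Has1, a synthase whose loss mice tolerate, had overlapping values. Its probe set 1420590_at read 7.19, 7.20 and 7.32 in double-null palates, against 7.20, 7.03 and 7.29 in Fz1-null palates. Only the pair numbered 2 was more than 0.1 apart, at 0.17. The mean difference was 0.07 (SE 0.09), with a 95% interval of -0.15 to 0.28, and it was -0.005 without Fz1-null array 2.

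**Figure D1:**
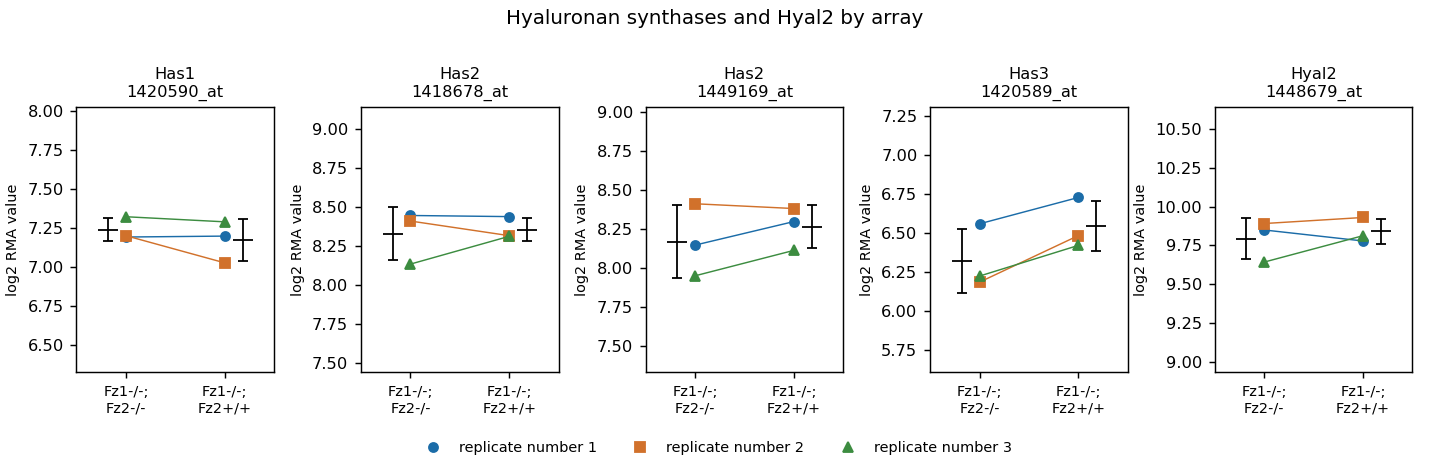
Log2 RMA values of the 4 synthase probe sets and of Hyal2 in each array, with double-null palates on the left and Fz1-null palates on the right of each panel, and lines joining arrays of the same number. Black bars give the mean and SD of the 3 arrays of a group, and every panel spans the same range of values. The 3 lines of Has3 all lie lower at their double-null end, whereas those of both Has2 probe sets, Has1 and Hyal2 go both ways.

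Hyal2, the hyaluronidase that cuts long chains at the cell surface, also overlapped between the genotypes. Probe set 1448679_at read 9.85, 9.89 and 9.64 in double-null arrays, against 9.78, 9.93 and 9.81 in Fz1-null arrays. Double-null array 3 was the lowest, and the other double-null arrays lay within the Fz1-null range. The difference was -0.05 (SE 0.09), with a 95% interval of -0.26 to 0.17, and 0.03 without double-null array 3.

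Cd44 had the largest difference of the 6 genes, and 3 of its 4 probe sets were lower in double-null palates in all 3 pairs. That was true of 12.8% of all probe sets. The brightest, 1423760_at, read 8.54, 8.50 and 8.94 in double-null arrays 1 to 3, against 8.73, 8.80 and 9.12 in Fz1-null arrays 1 to 3. Array 3 was the brightest in both groups, so the groups overlapped although every pair went the same way. Pair differences were -0.19, -0.30 and -0.19, and the means were 8.66 ± 0.24 in double-null and 8.88 ± 0.21 in Fz1-null palates (SD, n = 3 each). The mean difference was -0.23 (SE 0.15, 1.17-fold lower), with a 95% interval of -0.58 to 0.12. The limma adjusted p was 1.00, and 0.966 with the replicate block (unadjusted p = 0.0083).

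The other Cd44 probe sets were dimmer. Probe set 1434376_at read 8.34, 8.13 and 8.45 in double-null palates, against 8.40, 8.43 and 8.56 in Fz1-null palates, a difference of -0.16 (SE 0.10). All 3 pairs were lower, by 0.06 in the closest pair and 0.30 in the widest. Probe set 1452483_a_at, whose suffix marks probes shared by several transcripts of a gene, read 6.92, 6.88 and 6.84 in double-null palates, against 6.95, 6.93 and 7.21 in Fz1-null palates. It was the one probe set of the 17 whose groups did not overlap, which on the lower side was true of 1.73% of all probe sets. Its difference of -0.15 (SE 0.09) came mostly from the pair numbered 3, where it was -0.37, against -0.03 and -0.05 in the pairs numbered 1 and 2. The last probe set, 1443265_at, was near the bottom of the scale, at 4.03, 4.18 and 4.27 in double-null palates against 4.11, 4.08 and 4.08 in Fz1-null palates. It differed by 0.07 (SE 0.08), the opposite direction. The 4 probe sets share the same 6 RNA samples and are not independent measurements of the gene.

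Vcan gave bright signals, and its brightest probe set differed least of all 17 between the genotypes. Of its 8 probe sets, 3 lay between the 95.2 and 98.6 percentiles of all probe sets by mean level. Probe set 1427256_at read 12.14, 11.97 and 11.68 in double-null arrays 1 to 3, against 12.08, 11.96 and 11.79 in Fz1-null arrays 1 to 3. The groups overlapped, and in both of them array 1 was the brightest and array 3 the dimmest. Its difference was -0.01 (SE 0.13), with a 95% interval of -0.32 to 0.29 and, with the replicate block, of -0.17 to 0.14.

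The other bright Vcan probe sets were likewise split by array number. Probe set 1421694_a_at read 11.56, 10.91 and 11.01 in double-null palates, against 11.48, 11.02 and 11.14 in Fz1-null palates, a difference of -0.05 (SE 0.19). Probe set 1427257_at read 11.13, 10.49 and 10.49 in double-null palates, against 11.07, 10.71 and 10.62 in Fz1-null palates, a difference of -0.09 (SE 0.19). In both, array 1 stood above the other arrays of its genotype. The means of the 3 replicate numbers spanned 0.37, 0.55 and 0.54 log2 units in 1427256_at, 1421694_a_at and 1427257_at, several times the genotype difference in each. What such a number stands for is not in the labels.

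The remaining 5 Vcan probe sets were dim and disagreed in sign. Probe sets 1433043_at and 1447586_at differed by 0.06 (SE 0.16) and 0.10 (SE 0.08), and 1433043_at was the 1 probe set of the 17 that was higher in all 3 pairs, as 11.6% of all probe sets were. Probe sets 1433044_at, 1447887_x_at and 1459767_x_at differed by -0.05 (SE 0.18), -0.04 (SE 0.33) and -0.04 (SE 0.14). The suffix of the last 2 marks probes that may also bind other transcripts. The widest scatter was that of 1447887_x_at, from 4.30 to 5.51 over the 6 arrays.

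**Figure D2:**
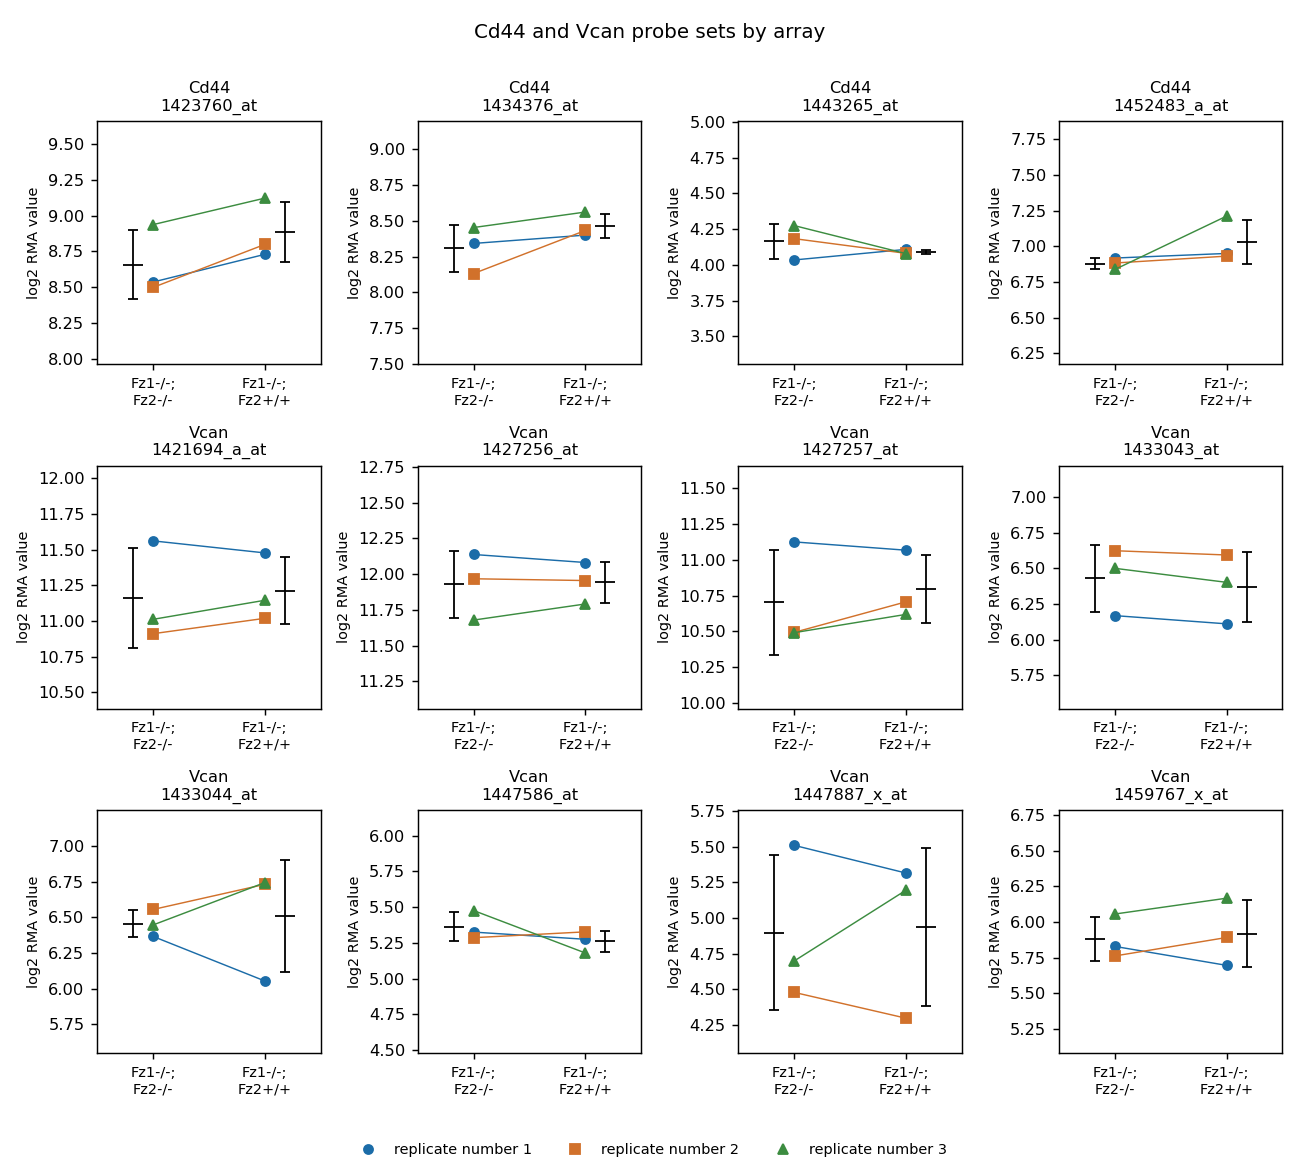
Log2 RMA values of the 4 Cd44 and 8 Vcan probe sets in each array, double-null palates on the left and Fz1-null palates on the right, with lines joining arrays of the same number, black bars for mean and SD (n = 3), and the same span of values in each panel. All lines of 3 Cd44 probe sets lie lower at the double-null end, while in the 3 bright Vcan panels the lines are separated by replicate number more than they slope.

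The sequences before the transcription start of Cd44 and Vcan are shown because these genes differed most and least by their brightest probe set, and because the nuclear partners of beta-catenin in Wnt signalling, the TCF/LEF factors, bind short motifs around CTTTG. Each is the 250 bases upstream of the RefSeq gene start, 5′ to 3′ on the strand of the gene, from RefSeq on GRCm38.p6. The Cd44 window is chr2:102901666-102901915 on the minus strand and the Vcan window is chr13:89742513-89742762 on the minus strand. Matches to CTTTGA or CTTTGT on either strand would be in capitals.
Cd44: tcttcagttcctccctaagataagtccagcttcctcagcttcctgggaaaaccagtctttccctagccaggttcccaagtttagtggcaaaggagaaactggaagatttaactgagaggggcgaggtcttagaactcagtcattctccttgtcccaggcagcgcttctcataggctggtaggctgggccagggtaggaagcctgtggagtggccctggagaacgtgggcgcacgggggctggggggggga
Vcan: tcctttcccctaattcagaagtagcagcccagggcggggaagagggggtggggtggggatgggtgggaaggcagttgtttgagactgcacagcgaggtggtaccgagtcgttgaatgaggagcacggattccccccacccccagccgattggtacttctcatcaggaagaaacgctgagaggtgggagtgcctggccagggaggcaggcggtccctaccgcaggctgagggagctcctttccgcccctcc
Neither window holds a match, so no letter is in capitals. Promoters were listed for 5 of the 7 genes, and of these the Hyal1 window held 2 matches and those of Cd44, Vcan, Has1 and Hyal2 held 0. Over all genes 27.7% of such windows (7494 of 27025) held at least 1. An absent match says only that these letters are not in this window.

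The plot of differences sets all 17 probe sets side by side. By mean, 13 of the 17 were lower in double-null palates (76.5%), beside 52.1% of all probe sets. In all 3 pairs 4 of the 17 were lower, beside 12.8% of all probe sets, and of these 3 belonged to Cd44 and 1 to Has3. Probe sets of 1 gene repeat the same samples, so these counts do not stand for 17 measurements.

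**Figure D3:**
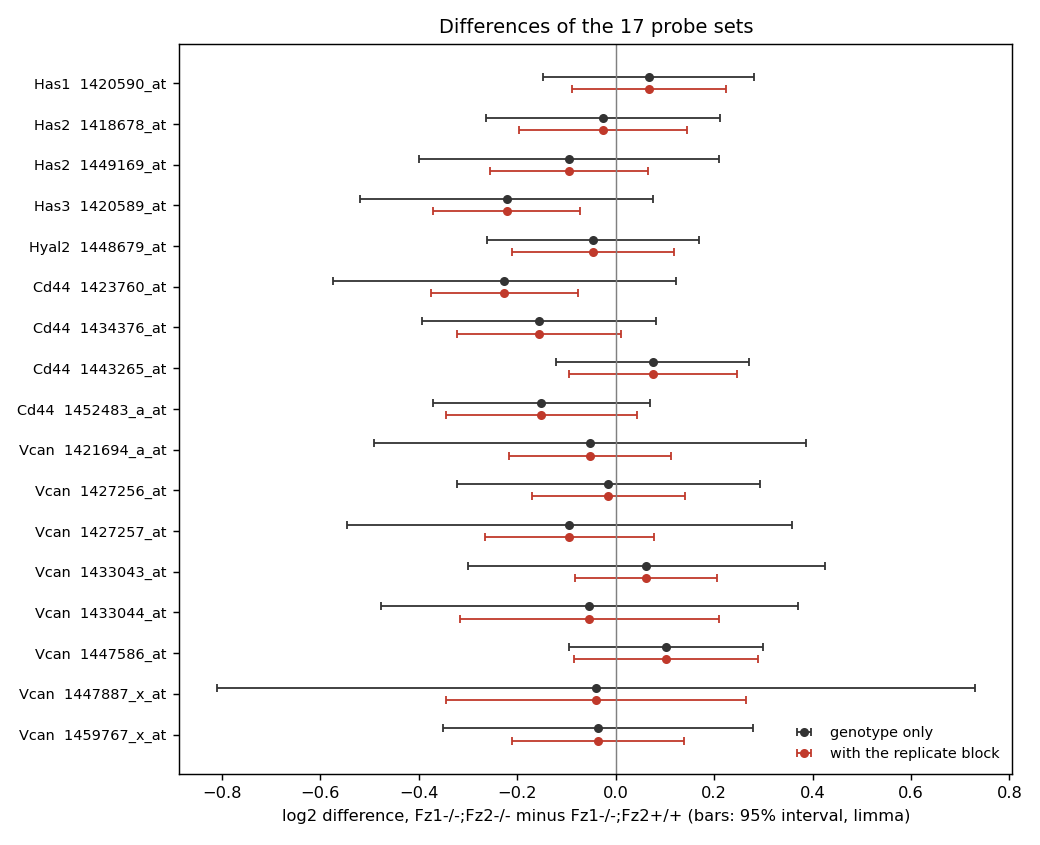
Log2 differences (double-null minus Fz1-null) of the 17 probe sets with 95% intervals from limma, in black with genotype alone and in red with the replicate block. All intervals with genotype alone cross 0, and with the block those of Has3 and of Cd44 1423760_at lie below 0 before adjustment over 45037 probe sets.

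Of 46 other genes of the pathway, 45 were measured, each taken by its brightest probe set, and none passed with limma with or without the replicate block (0 of 45, against 0% and 0.00666% of all probe sets). They were lower in 21 and higher in 24, with a median difference of 0.002, beside -0.008 over all 18193 genes. At an unadjusted p under 0.05 there was 1 of 45, on the higher side, beside 0.691% of all probe sets there. With the block there were 3 of 45: Ptx3 on the lower side (unadjusted p = 0.0056, beside 1.94% of all probe sets), and Itih1 and Itih5 on the higher side (0.018 and 0.034, beside 2.77%), each with a limma adjusted p of 0.966.

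Enzymes that supply the sugar precursors had small differences, from -0.06 to 0.08, with 7 of 9 lower. Ugdh, which makes UDP-glucuronic acid, differed by -0.04 (SE 0.13). By smallest p the members were Pgm1 (0.08, SE 0.09), a phosphoglucomutase, Gnpnat1 (-0.06, SE 0.09), an acetyltransferase on the way to UDP-N-acetylglucosamine, and Pgm2 (0.05, SE 0.11). None was as far from 0 as Has3 or Cd44.

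Among other receptors and binding proteins, 9 of 14 were higher. Itih1, a heavy chain of the inter-alpha-trypsin inhibitors that are transferred onto hyaluronan, read 0.18 higher (SE 0.07, unadjusted p = 0.041, limma adjusted p = 1.00), with pair differences of 0.20, 0.16 and 0.19. It was the 1 gene of the 45 whose groups did not overlap, as were 2.79% of all probe sets on the higher side. Its relative Itih5 differed by 0.24 (SE 0.12), and Stab2, a scavenger receptor that clears hyaluronan, by 0.12 (SE 0.11). Ptx3, a pentraxin that cross-links heavy chains on hyaluronan, differed by -0.27 (SE 0.24) and was lower in all 3 pairs, by 0.24, 0.17 and 0.39. Hmmr, the mitotic hyaluronan-binding protein, differed by -0.02 (SE 0.10).

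Of the versican relatives and link proteins, 4 of 7 were higher. Ncan (0.24, SE 0.22), Hapln4 (0.16, SE 0.12) and Bcan (0.14, SE 0.09), all known from neural matrix, were higher in all 3 pairs, as were 11.6% of all probe sets. The Ncan difference was 0.68 in the pair numbered 3, against 0.03 and 0.004 in the pairs numbered 1 and 2. Neuronal markers (7 genes) differed on average by -0.28, -0.006 and 0.18 in the pairs numbered 1, 2 and 3, with array means of 10.2 to 10.7 in double-null and 10.2 to 10.8 in Fz1-null palates, and their part in the Ncan value was not tested. Hapln1, the link protein that locks versican to hyaluronan, differed by 0.002 (SE 0.32), the same in each pair to within 0.02.

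Breakdown genes were higher in 6 of 9, with differences from -0.06 to 0.12. Hyal5 (0.11, SE 0.09) and Spam1 (0.12, SE 0.11), hyaluronidases of sperm, read near the bottom of the scale, and Hexa, a lysosomal hexosaminidase, differed by 0.09 (SE 0.10). Hyal3, which neighbours Hyal1 in RefSeq, differed by 0.04 (SE 0.09). The proteases that cut versican were split 3 to 3, with Adamts20 at -0.18 (SE 0.17), Adamts4 at -0.13 (SE 0.09) and Adamts9 at 0.05 (SE 0.08).

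**Figure D4:**
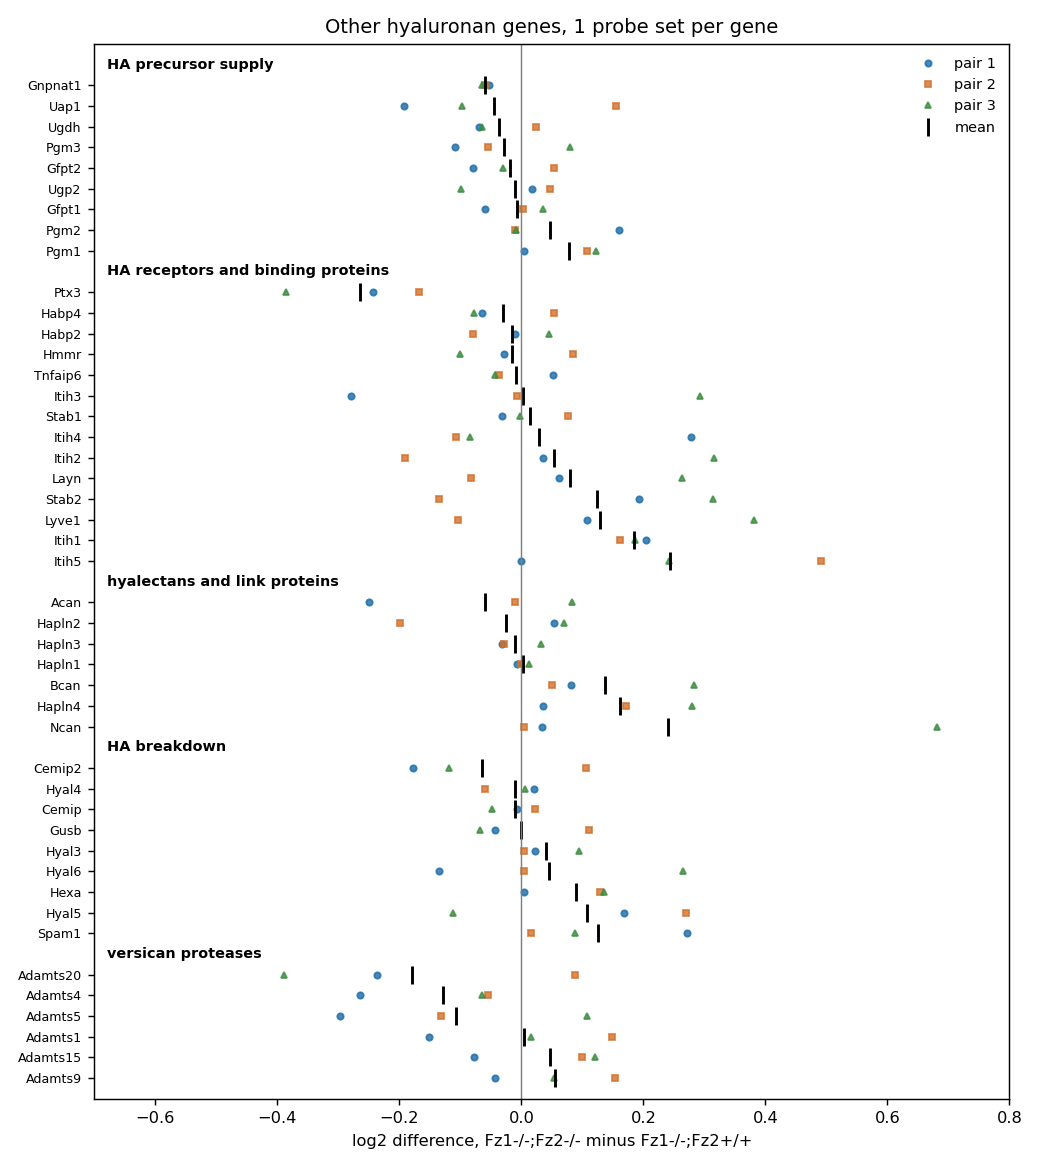
Log2 differences (double-null minus Fz1-null) of 45 other hyaluronan (HA) genes, grouped by role, with a symbol for each pair of same-numbered arrays and a black tick for the mean. Most ticks lie within 0.1 of 0, and Ncan in the pair numbered 3 stands farthest from it at 0.68.

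Epithelial marker levels varied over the same arrays and are given beside Has3 and Cd44, which epithelial cells also express. All 10 epithelial markers were lower in double-null palates by mean, with a median difference of -0.20, and their mean level ran from 8.98 to 9.38 in double-null and from 9.22 to 9.50 in Fz1-null arrays. None was near the bottom of the scale. The epithelial mean differed by 0.01, -0.12 and -0.53 in the pairs numbered 1, 2 and 3, whereas Cd44 1423760_at differed by -0.19, -0.30 and -0.19 and Has3 by -0.17, -0.30 and -0.20. The part of epithelial markers in the Has3 and Cd44 values was not tested. In bulk tissue, fewer cells of a type and less RNA per cell cannot be told apart.

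The means of the palate mesenchyme and bone marker lists were lower in double-null palates in all 3 pairs, as were Has3 and 3 Cd44 probe sets. Single markers were less uniform, with 3 of the 9 mesenchyme and 2 of the 3 bone markers lower in every pair, beside 12.8% of all probe sets. Of the 9 mesenchyme markers 8 were lower by mean, with list means of -0.02, -0.06 and -0.28 in the pairs numbered 1, 2 and 3, and mean levels of 10.50 to 10.58 in double-null and 10.60 to 10.78 in Fz1-null arrays. Prrx2 (-0.22, SE 0.08) and Osr2 (-0.27, SE 0.14), transcription factors of the shelf mesenchyme, did not overlap between the groups. On the lower side this was true of 1.73% of all probe sets. Msx1, a homeobox factor, overlapped and was 0.37 lower by mean (SE 0.19). Of the 5 listed bone markers, Runx2 and Spp1 had no single-symbol probe set. The 3 measured ones were all lower by mean, with list means of -0.50, -1.81 and -0.29 in the same pairs. Their mean levels were 6.93 to 8.85 in double-null and 8.28 to 9.13 in Fz1-null arrays. Alpl, the alkaline phosphatase of mineralising cells, differed by -0.31, -0.45 and -0.37 in the 3 pairs, with a mean of -0.38 (SE 0.20, limma adjusted p = 1.00; 0.966 with the replicate block, unadjusted p = 0.00044). Ibsp, a bone matrix protein, differed by -1.20, -4.46 and -0.37. It read 4.43 in double-null array 2, near the bottom of the scale, against 8.88 in Fz1-null array 2. Most of the bone list mean in the pair numbered 2 thus came from Ibsp. Sp7, a transcription factor of bone-forming cells, differed by 0.002, -0.53 and -0.12. None of these genes passed, and the part of mesenchyme and bone markers in the Has3 and Cd44 values was not tested.

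Macrophages also carry CD44, and their 7 markers were all higher by mean, by 0.01 to 0.09, with array means of 7.98 to 8.15 in double-null and 7.94 to 8.05 in Fz1-null palates. Skeletal muscle markers were higher in 10 of 10, with pair means of -0.12, -0.23 and 0.75, and double-null array 3 stood apart at 9.84 against 8.87 to 9.10 in the other 5. Both Has2 probe sets and Hyal2 had their lowest values in that array. So did Vcan 1427256_at and 1427257_at, Cd44 1452483_a_at, and markers of other lists such as Prrx1, Pax9, Epcam and Cdh1. The part of muscle markers in those values was not tested. Of the remaining lists, endothelial markers were higher in 6 of 7, erythroid markers in 4 of 4 and cartilage markers in 2 of 5. The endothelial markers Tek and Cldn5 did not overlap between the groups, as was true of 2.79% of all probe sets on the higher side.

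**Figure D5:**
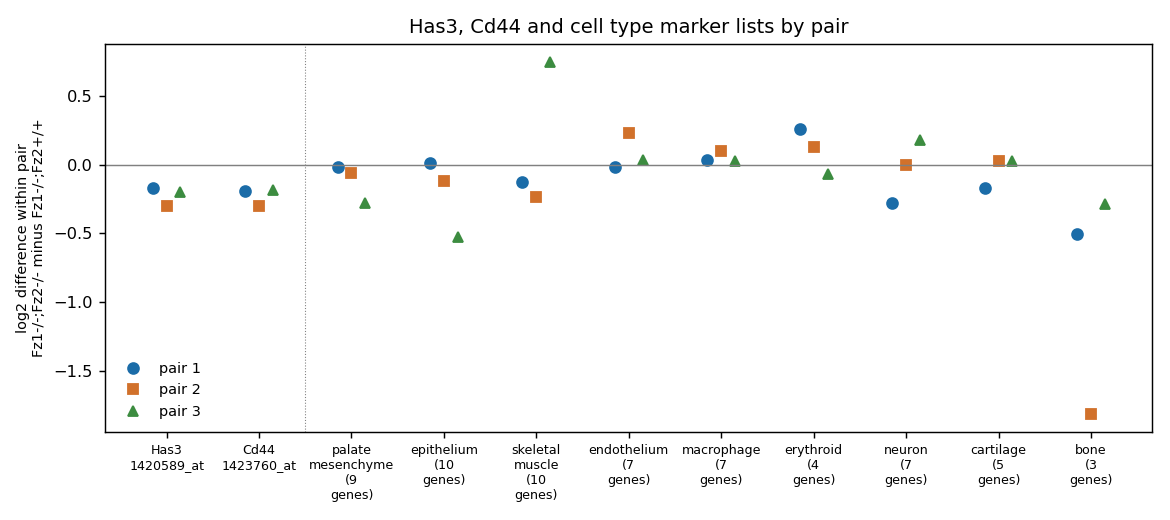
Log2 differences (double-null minus Fz1-null) within each pair of same-numbered arrays, for Has3, Cd44 and the mean of each cell type marker list. Has3 and Cd44 lie between -0.17 and -0.30 in all 3 pairs, while the epithelial mean runs from 0.01 to -0.53, the muscle mean from -0.23 to 0.75 and the bone mean from -0.29 to -1.81. The bone mean rests on 3 genes, and its lowest value came mostly from Ibsp.

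The genes whose values over the 6 arrays lay closest to those of Has2, Cd44 and Vcan were found by the root-mean-square difference of centred log2 values, among 18192 other genes. For Cd44 they were Npnt (0.0288), which encodes the integrin ligand nephronectin, Col22a1 (0.0443), a collagen, and Klf4 (0.0625), an epithelial transcription factor, against a median of 0.234 for all genes. Npnt read 9.93, 9.84 and 10.26 in double-null arrays, against 10.14, 10.15 and 10.50 in Fz1-null arrays, a difference of -0.25 with array 3 the brightest of each group. For Has2 they were Polr1c (0.0128), Aurka (0.0192) and Mrpl32 (0.0201), against a median of 0.149. For Vcan they were Magt1 (0.00882), Zfp24 (0.0159) and Dhx40 (0.0168), against 0.19. These last 6 genes differed between genotypes by less than 0.05. The genes were picked because all 6 values match, so a like genotype difference and a like order of arrays follow from the choice. With so many genes and 6 arrays, such closeness is a description of these arrays.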

How the data were processed

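Total RNA of 6 palate samples was hybridised to Affymetrix Mouse430_2 arrays, as named in the labels' file lists. The authors deposited log2 values per probe set, made with RMA per the submitters' processing notes, and its version is not given in the sources used here. RMA makes no presence call and equalises the arrays, so a shift of most transcripts would not be seen. A deposited table of the authors' comparison gives, per the file headers, a log2 fold change, a fold change on the linear scale and a p-value. Its log2 values equalled the group differences with the sign turned (largest deviation 4.93e-08).

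Of 45101 probe sets, 64 controls were left out. Names came from the platform annotation, updated by Entrez identifier to RefSeq (GRCm38.p6): 34945 probe sets had 1 symbol (34741 matched RefSeq), 932 several and 9160 none. The fit was limma 3.58.1 in R 4.3.3 on 3 arrays against 3, with genotype as the only term, two-sided, with Benjamini-Hochberg adjustment over 45037 probe sets and 95% intervals. An exact permutation of 3 against 3 arrays cannot give a p below 0.1. Same-numbered arrays deviated together (correlations of 0.629, 0.439 and 0.63), and on that ground, not from the labels, they were treated as pairs in a fit with the replicate block. Named were all probe sets of the 7 genes, Fzd2, the 3 genes with the smallest p of each other list and the 3 genes of closest profile. Ugdh, Hmmr, Ptx3, Hapln1, Hyal3 and the single cell type markers named for a result of their own fall outside that rule and were chosen after their values were seen. Members and lists were chosen with earlier results of these data known. Alternatives were the block, a filter on dim probe sets, an intensity trend, repeated quantile normalization, median centring, array weights, 1 probe set or the mean per gene, the deposited p-values with adjustment, and leaving out arrays or pairs. The fits were also run on simulated data with planted differences larger than that of any hyaluronan probe set here. Differences as small as those of Has3 and Cd44 were not simulated.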

Additional observations from a re-analysis of the deposited data

How the results depend on the processing

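No hyaluronan probe set passed under any of the alternatives run, and over all probe sets the count past the threshold was 0 without the replicate block. With the block it was 3, all of Fzd2, and over the fits that left out an array or a pair it ran from 0 to 93, the highest with the pair numbered 1 left out of the block. The block changed no call for a hyaluronan gene. With single arrays left out, the differences of Has3 (-0.34 to -0.13) and of 3 Cd44 probe sets (1423760_at -0.37 to -0.11, 1434376_at -0.23 to -0.07, 1452483_a_at -0.20 to -0.06) stayed below 0. These 4, with Cd44 1443265_at and Vcan 1447586_at on the higher side, kept their sign in every fit run, and the other 11 of 17 probe sets did not. With array weights the difference was 0.015 for Has2 1418678_at, 0.038 for Vcan 1427256_at and 0.015 for Vcan 1447887_x_at, and with repeated quantile normalization it was 0.013 for Vcan 1427256_at. With single arrays left out it ran from -0.0054 to 0.13 for Has1, -0.084 to 0.072 for Has2 1418678_at, -0.22 to 0.015 for Has2 1449169_at and -0.094 to 0.030 for Hyal2. For Vcan it ran from -0.25 to 0.079 in 1421694_a_at, -0.12 to 0.11 in 1427256_at, -0.31 to 0.041 in 1427257_at, -0.067 to 0.19 in 1433043_at, -0.28 to 0.063 in 1433044_at, -0.36 to 0.17 in 1447887_x_at and -0.15 to 0.088 in 1459767_x_at. With the block and the pair numbered 3 left out it was 0.051 for Has2 1418678_at, 0.016 for Hyal2, 0.034 for Vcan 1427256_at, 0.068 for 1433044_at, 0.19 for 1447887_x_at and 0.0017 for 1459767_x_at. With the pair numbered 2 left out it was 0.0076 for Vcan 1433044_at and 0.011 for 1459767_x_at. The cause was not tested. Signal over background is not in the RMA values, so what the dim probe sets can resolve is not known.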
